A study of Mus musculus with 8 samples.

Results

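The actin filaments of the retinal pigment epithelium (RPE) and the proteins that pull on, bundle and turn over those filaments were followed through 50 genes in RPE isolated from *Bbs8*-/- and *Bbs8*+/+ mice at postnatal day 29 (P29). The genes were chosen by family name: actins, alpha-actinins, tropomyosins, myosin heavy and light chains, unconventional myosins, calponins, transgelins, caldesmon, cofilins, profilins, filamins, the ROCK kinases and vinculin. Of 79 genes with such names, 50 reached 1 CPM (counts relative to library size) in at least 4 of the 8 libraries and were tested together with all other genes that did so, 12889 in all. The remaining 29 did not reach this level: 10 of them had no count in any library, and no library held more than 14 counts of any of the other 19.

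*Bbs8*, listed under its other name *Ttc8*, encodes a subunit of the BBSome, a protein complex that moves cargo at the primary cilium. The mice were untreated littermates of the C57/Bl6 strain, 4 of each genotype, and because the knock-out was not conditional, the photoreceptors next to the RPE lacked *Bbs8* as well. The labels leave the sex undetermined. After lens and retina had been taken out and the eyecups treated with trypsin, RPE sheets were peeled from the choroid, so RNA of the neighbouring tissues can remain in a preparation. Each animal was one biological replicate and one library, and n is 4 per genotype for every mean ± SD.

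Contractile bundles of actin and non-muscle myosin II form a belt beneath the apical junctions of each RPE cell and hold its hexagonal outline. ROCK kinase raises the activity of this myosin by phosphorylating its regulatory light chain and by inhibiting the phosphatase that removes the phosphate. Tropomyosins, calponins and caldesmon lie along the filaments, alpha-actinins and filamins crosslink them, cofilins sever them and profilins feed them with actin monomers, while the unconventional myosins carry vesicles, melanosomes and membrane along them. Many muscle and cytoskeletal genes of this kind are read by the serum response factor (SRF), which binds a short DNA element called the CArG box.

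The promoter windows of RefSeq (GRCm38.p6; 250 bases before to 50 bases after each start site) covered 42 of the 50 genes, and a CArG box was present in 6 of these 42 genes (14.3%). On the same window and on both strands, 158 of the 9993 tested genes with a window (1.58%) held the element. Only the strict form was searched for, CC followed by 6 bases of A or T and GG. Looser forms of the element, and genes without a window, were not examined. These 6 stretches are shown because they are the ones that carry the strict form among the 42 covered genes. Each has the CArG box in capitals, with its first base 32 to 227 bases before the start site.
*Actg1* (chr11:120348561-120348600, minus strand): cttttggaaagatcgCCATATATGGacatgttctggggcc
*Cnn2* (chr10:79988529-79988568, plus strand): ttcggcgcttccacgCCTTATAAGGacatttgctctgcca
*Myl6* (chr10:128493035-128493074, minus strand): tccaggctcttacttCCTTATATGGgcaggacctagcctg
*Myl9* (chr2:156775288-156775327, plus strand): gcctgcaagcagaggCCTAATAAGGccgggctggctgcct
*Myo1e* (chr9:70207303-70207342, plus strand): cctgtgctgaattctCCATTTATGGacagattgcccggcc
*Vcl* (chr14:20929156-20929195, plus strand): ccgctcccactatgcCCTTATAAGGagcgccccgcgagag

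None of these 6 genes passed the test between the genotypes, as described with their values under each role. The 9 genes that did pass included 7 with a window, and 0 of the 7 held a CArG box there. Because only 1.58% of all tested genes with a window held the element, 7 genes are too few to show a lower share. The 250 bases upstream of the start had a median GC content of 68.0% and a median of 23 CG dinucleotides over the 10 windows of these 7 genes, beside 60.0% and 15 over the 12850 windows of all tested genes. Over the 51 windows of the 42 covered genes of the set, the medians were 63.6% and 16. The 10 windows varied widely, from 46.0% to 83.6% GC and from 2 to 46 CG dinucleotides, and *Myo1c* and *Myo10* each had a window well below the median of all tested genes in CG dinucleotides, with 2 and 4. The stretches of *Rock2*, *Cnn3* and *Pfn2*, the highest in GC content among them at 83.6%, 78.8% and 78.0%, are printed with CG in capitals.
*Rock2* (chr12:16894728-16894977, plus strand): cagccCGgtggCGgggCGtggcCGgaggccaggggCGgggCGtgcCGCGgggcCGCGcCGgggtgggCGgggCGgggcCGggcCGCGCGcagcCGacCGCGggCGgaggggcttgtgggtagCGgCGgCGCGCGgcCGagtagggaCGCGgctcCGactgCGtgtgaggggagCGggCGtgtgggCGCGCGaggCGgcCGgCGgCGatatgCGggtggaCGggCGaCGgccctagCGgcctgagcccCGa
*Cnn3* (chr3:121426291-121426540, plus strand): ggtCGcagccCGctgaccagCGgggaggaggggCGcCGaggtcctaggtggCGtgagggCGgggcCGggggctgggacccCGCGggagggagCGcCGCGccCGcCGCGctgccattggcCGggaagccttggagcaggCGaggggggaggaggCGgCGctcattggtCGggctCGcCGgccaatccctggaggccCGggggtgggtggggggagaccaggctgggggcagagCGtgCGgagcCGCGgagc
*Pfn2* (chr3:57847758-57848007, minus strand): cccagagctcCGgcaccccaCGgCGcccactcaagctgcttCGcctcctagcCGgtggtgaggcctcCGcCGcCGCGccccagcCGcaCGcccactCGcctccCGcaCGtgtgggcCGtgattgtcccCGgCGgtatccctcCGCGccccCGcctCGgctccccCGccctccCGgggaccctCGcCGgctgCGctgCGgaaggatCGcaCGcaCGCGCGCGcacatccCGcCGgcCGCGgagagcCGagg

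Libraries held 2389835 to 3093428 counts on genes, and the detection floor, set at 3 counts for counting error alone, lay at 0.970 to 1.26 CPM. QuantSeq reads the 3′ end of a transcript once, so CPM were not divided by gene length, and all CPM given were scaled by TMM factors. The targeted *Ttc8* had 105 to 144 counts in *Bbs8*+/+ and 5 to 15 counts in *Bbs8*-/- libraries. The 10 RPE markers summed to 36206 to 37251 CPM in *Bbs8*+/+ and to 44927 to 48390 CPM in *Bbs8*-/- libraries. *Ttr*, with means of 20932 and 31748 CPM, made this difference, and the other 9 RPE markers summed to 15406 to 16246 CPM and to 14847 to 15261 CPM, lower in each *Bbs8*-/- library. Markers of other tissues were present too, and several differed between the genotypes: 12 photoreceptor markers summed to 48257 to 51974 CPM against 19547 to 20107 CPM, 13 lens markers to 3203 to 3477 CPM against 440.4 to 488.1 CPM, and 8 markers of Müller and reactive glia to 5138 to 5780 CPM against 7127 to 7428 CPM. *Apoe* and *Glul* made most of the glial sum. In such bulk samples fewer cells of one type and less RNA per cell cannot be told apart.

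Of the 50 genes, 9 rose in *Bbs8*-/- RPE and 0 fell (18.0% and 0%), in edgeR's quasi-likelihood test with Benjamini-Hochberg adjustment over all genes. Over all 12889 genes 5.46% rose and 6.80% fell. The genes that rose were the membrane and vesicle motors *Myo5b*, *Myo10*, *Myo1d* and *Myo1c*, the kinase *Rock2*, both alpha-actinins *Actn1* and *Actn4*, the monomer binder *Pfn2* and the calponin *Cnn3*, by 0.36 to 1.67 on the log2 scale. At an unadjusted p under 0.05, 14 of the 50 were higher and 0 lower, beside 1453 higher and 1563 lower of all 12889 genes. DESeq2 called 10 of the 50 higher and 0 lower, beside 752 higher and 901 lower over all genes. The estimates of 33 genes lay above 0 and those of 17 below, with a median log2 fold change of 0.19 beside 0.02 for all genes. In 14 genes every *Bbs8*-/- library lay above every *Bbs8*+/+ library, which held for 7.42% of all genes, and in 0 genes every *Bbs8*-/- library lay below, which held for 8.62% of all genes. Among the 36 genes that averaged 10 CPM or more, 8 rose and 0 fell (22.2% and 0%). Over all 8428 genes at that level 7.33% rose and 9.92% fell. In the set, 12 of the 50 genes had passed the filter without reaching 1 CPM in all libraries of each genotype, and none of these rose or fell. The spread between animals was similar in the genotypes, with a median coefficient of variation of 14.0% in *Bbs8*+/+ and 13.2% in *Bbs8*-/- libraries over the 36 genes. *Bbs8*+/+ library 1 was most often at an edge of its group, the lowest of the 4 for 13 of the 36 genes and the highest for 16.

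**Figure D1:**
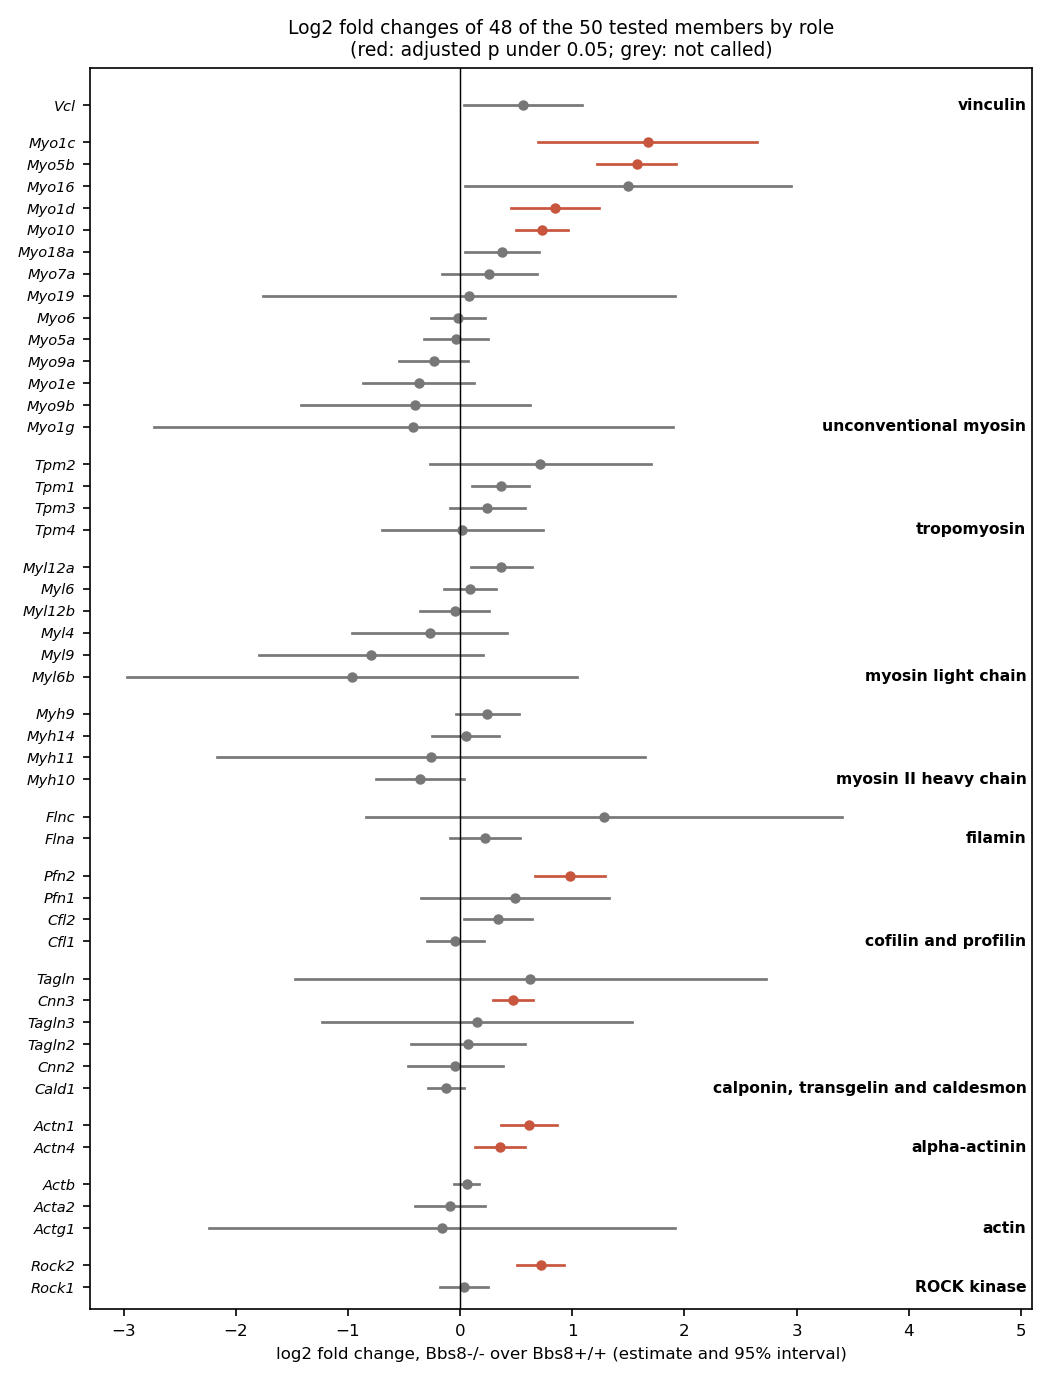
Log2 fold change of 48 of the 50 genes (x axis; *Bbs8*-/- over *Bbs8*+/+), grouped by role, with 95% intervals as bars; red marks an adjusted p under 0.05. The 9 red genes lie to the right of 0, between 0.36 and 1.67, and the widest bars belong to genes of a few CPM.

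*Rock2* and *Rock1* encode the 2 ROCK kinases, of which *Rock2* rose and *Rock1* did not pass the test. *Rock2* (chr12:16894895-16987823) was at 132, 116, 117 and 116 CPM in the *Bbs8*+/+ libraries and at 182, 221, 199.6 and 187 CPM in the *Bbs8*-/- libraries. Every mutant library was above every control library, and the means of 120.1 ± 7.71 and 197 ± 17.1 CPM corresponded to a log2 fold change of 0.72 (SE 0.108, adjusted p = 4.03e-06). *Rock1* was at 183 ± 25.1 CPM in *Bbs8*+/+ and 188 ± 16.3 CPM in *Bbs8*-/- RPE, with overlapping libraries and a log2 fold change of 0.03 (95% interval -0.18 to 0.25, adjusted p = 0.901). *Rock2* mRNA stood below *Rock1* mRNA in each *Bbs8*+/+ library, with count ratios of 0.602, 0.729, 0.658 and 0.653, and near it in the *Bbs8*-/- libraries, at 0.957, 1.34, 1.03 and 0.926. The ratios did not overlap, and the exact two-sided permutation p of 0.0286 is the smallest that 4 against 4 libraries allow. After adjustment over the 6 ratios of paralogs examined it was 0.0571, none of the 6 ratios passed 0.05, and the pairs were picked after the values of their genes were known.

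The actins themselves, the substrate of all of these proteins, did not pass the test. *Actb*, the main cytoplasmic actin and the most abundant gene of the set, was at 2262 ± 120.2 CPM in *Bbs8*+/+ and 2354 ± 100.3 CPM in *Bbs8*-/- RPE, and its interval of -0.06 to 0.17 on the log2 scale was narrow (adjusted p = 0.621). *Acta2*, the smooth muscle actin, was at 62.8 ± 10.7 and 59.0 ± 7.32 CPM (log2 fold change -0.09, adjusted p = 0.810). *Actg1*, the other cytoplasmic actin, was listed at only 1.28 ± 1.49 and 1.15 ± 0.384 CPM, close to the floor. Of the 50-base stretches in the last 500 bases of its transcripts, 49.9% were shared with 22 other genes, and since reads with more than one match were not counted, its level cannot be read from these counts. The skeletal muscle actin *Acta1* had 0 to 11 counts in a library and the enteric actin *Actg2* none.

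Alpha-actinins crosslink actin filaments and anchor them at junctions and adhesion sites, and both non-muscle forms rose. *Actn1* (chr12:80167547-80260371) was at 81.9, 123, 143 and 114 CPM in *Bbs8*+/+ and at 159, 193, 181 and 172 CPM in *Bbs8*-/- libraries, without overlap. Its mean went from 115 ± 25.4 to 176 ± 14.5 CPM, a log2 fold change of 0.61 (SE 0.127, adjusted p = 5.90e-04). *Actn4* (chr7:28893248-28962340) was at 149.97, 232, 252 and 243 CPM and at 294, 283, 257 and 288 CPM, again without overlap, but the lowest *Bbs8*-/- library exceeded the highest *Bbs8*+/+ library only narrowly. The log2 fold change of *Actn4* was 0.36 (SE 0.114, adjusted p = 0.0309), and without *Bbs8*+/+ library 1, which held the 149.97 CPM, it was 0.21 (adjusted p = 0.124). The muscle forms *Actn2* and *Actn3* had at most 4 counts in any library.

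Tropomyosins coil along the filament and govern which motors can bind it. *Tpm1*, the most abundant of them, was at 79.9, 75.0, 78.9 and 71.7 CPM in *Bbs8*+/+ and at 92.4, 98.5, 96.4 and 106 CPM in *Bbs8*-/- libraries. The genotypes did not overlap and the log2 fold change was 0.36, but it lay just outside the threshold (SE 0.130, adjusted p = 0.0608), and 4 other settings put it inside, with adjusted p values of 0.0148 to 0.0427. *Tpm3* was at 52.7 ± 6.67 and 62.3 ± 13.8 CPM, *Tpm4* at 10.4 ± 3.66 and 10.5 ± 2.60 CPM and *Tpm2*, the tropomyosin typical of smooth muscle, at 4.52 ± 1.38 and 7.44 ± 3.91 CPM. None of these 3 passed the test, with adjusted p values of 0.431, 0.988 and 0.429.

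Non-muscle myosin II, the motor that contracts the filament belt, is built from a heavy chain, an essential and a regulatory light chain. No subunit of it rose or fell. Of its heavy chains, *Myh14* was at 87.9 ± 14.0 and 90.9 ± 20.6 CPM, *Myh9* at 65.8 ± 8.09 and 77.8 ± 2.05 CPM, and *Myh10* at 49.0 ± 6.95 and 38.4 ± 11.4 CPM. The *Myh9* libraries of the 2 genotypes did not overlap, yet its log2 fold change of 0.24 had an adjusted p of 0.322, and *Myh10* had the opposite sign (-0.36, adjusted p = 0.290). The smooth muscle heavy chain *Myh11* was at 0 to 5.75 CPM in the 8 libraries and the other 9 heavy chains of the family did not pass the filter.

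Among the light chains, the essential chain *Myl6* was the most abundant, at 165 ± 25.8 and 175 ± 27.3 CPM (log2 fold change 0.09, adjusted p = 0.738). The regulatory light chains *Myl12a* and *Myl12b* are adjacent genes with near-identical products. *Myl12a* was at 60.6, 77.2, 82.2 and 72.8 CPM in *Bbs8*+/+ and at 85.8, 84.2, 97.2 and 110.1 CPM in *Bbs8*-/- libraries, which did not overlap, with a log2 fold change of 0.37 that did not pass (adjusted p = 0.0830). *Myl12b* was at 63.0 ± 10.7 and 60.8 ± 3.96 CPM (-0.05, adjusted p = 0.905). In the last 500 transcript bases 27.3% of the 50-base stretches of *Myl12a* and 39.7% of those of *Myl12b* were shared with other genes, each other among them, so their split is uncertain. *Myl9*, the regulatory light chain of smooth muscle, was at 9.18 ± 2.19 and 5.33 ± 4.96 CPM (-0.80, adjusted p = 0.373), and its *Bbs8*-/- libraries ranged from 0.717 to 12.3 CPM. *Myl4*, a light chain of atrial muscle, was at 12.1 ± 1.22 and 10.0 ± 3.66 CPM and *Myl6b* at 2.21 ± 2.64 and 1.11 ± 1.09 CPM, and neither passed.

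The unconventional myosins held the largest differences, and 4 of the 15 tested rose. *Myo5b*, on chromosome 18, a class V motor that moves recycling endosomes towards the apical membrane, was at 22.3, 25.4, 23.7 and 26.0 CPM in *Bbs8*+/+ and at 84.6, 78.1, 57.6 and 69.9 CPM in *Bbs8*-/- libraries. All 4 mutant libraries were far above the controls, and the mean rose from 24.4 ± 1.66 to 72.5 ± 11.6 CPM, 2.98-fold (log2 fold change 1.57, SE 0.180, adjusted p = 1.38e-08). Its relative *Myo5a*, which tethers melanosomes to actin, was at 75.8 ± 12.8 and 73.9 ± 1.37 CPM (-0.04, adjusted p = 0.919). The ratio of *Myo5b* to *Myo5a* counts was 0.250, 0.410, 0.347 and 0.311 in *Bbs8*+/+ and 1.18, 1.05, 0.774 and 0.935 in *Bbs8*-/- libraries (exact permutation p = 0.0286, 0.0571 after adjustment over the 6 ratios).

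*Myo10* (chr15:25622525-25813673) encodes the motor found at the tips of filopodia, and it was the most abundant of the rising myosins. Its level was 95.5, 85.8, 84.2 and 92.2 CPM in *Bbs8*+/+ and 170.4, 139, 140.4 and 144 CPM in *Bbs8*-/- libraries. The lowest mutant library was far above the highest control, with a log2 fold change of 0.73 (SE 0.119, adjusted p = 1.88e-05). Class I myosins link membranes to actin, and *Myo1d* (chr11:80482126-80780025) among them rose from 39.3, 32.8, 18.0 and 30.5 CPM to 59.1, 60.2, 46.4 and 52.4 CPM. The groups did not overlap and the log2 fold change was 0.85 (SE 0.201, adjusted p = 0.00273). *Myo1c* (chr11:75650504-75673910) had the highest log2 fold change of the 9 genes, 1.67 (SE 0.500, adjusted p = 0.0208), at the lowest level, with 2.03, 1.49, 4.91 and 3.72 CPM in *Bbs8*+/+ and 14.0, 8.96, 6.80 and 9.09 CPM in *Bbs8*-/- libraries. It did not pass without *Bbs8*+/+ library 2 (adjusted p = 0.0765) or without *Bbs8*-/- library 1 (adjusted p = 0.0940).

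The remaining unconventional myosins included those best known in this epithelium. *Myo7a*, the motor of melanosomes and ingested outer segments in RPE, was at 34.5 ± 11.8 and 41.4 ± 8.87 CPM (log2 fold change 0.26, adjusted p = 0.526). *Myo6*, which runs towards the other end of the filament from all other myosins, was the most abundant unconventional myosin of *Bbs8*+/+ RPE, at 122 ± 16.6 and 121 ± 11.0 CPM (-0.02, adjusted p = 0.963). *Myo18a* was at 53.1 ± 7.29 and 68.7 ± 15.7 CPM (0.37, adjusted p = 0.161), with *Bbs8*-/- library 1 at 50.1 CPM inside the control range and adjusted p = 0.0492 when that library was left out. *Myo1e*, a class I myosin with a CArG box, was at 32.7 ± 6.75 and 25.1 ± 11.1 CPM (-0.37, adjusted p = 0.411). The ratio of *Myo1d* to *Myo1e* counts ran from 0.638 to 1.24 in *Bbs8*+/+ and from 1.43 to 3.89 in *Bbs8*-/- libraries (exact permutation p = 0.0286, adjusted 0.0571). *Myo16*, *Myo1g*, *Myo19* and *Myo9b* were each below 10 CPM on average and *Myo9a* was at 66.7 ± 3.04 and 56.6 ± 8.89 CPM, and none of these 5 passed.

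**Figure D2:**
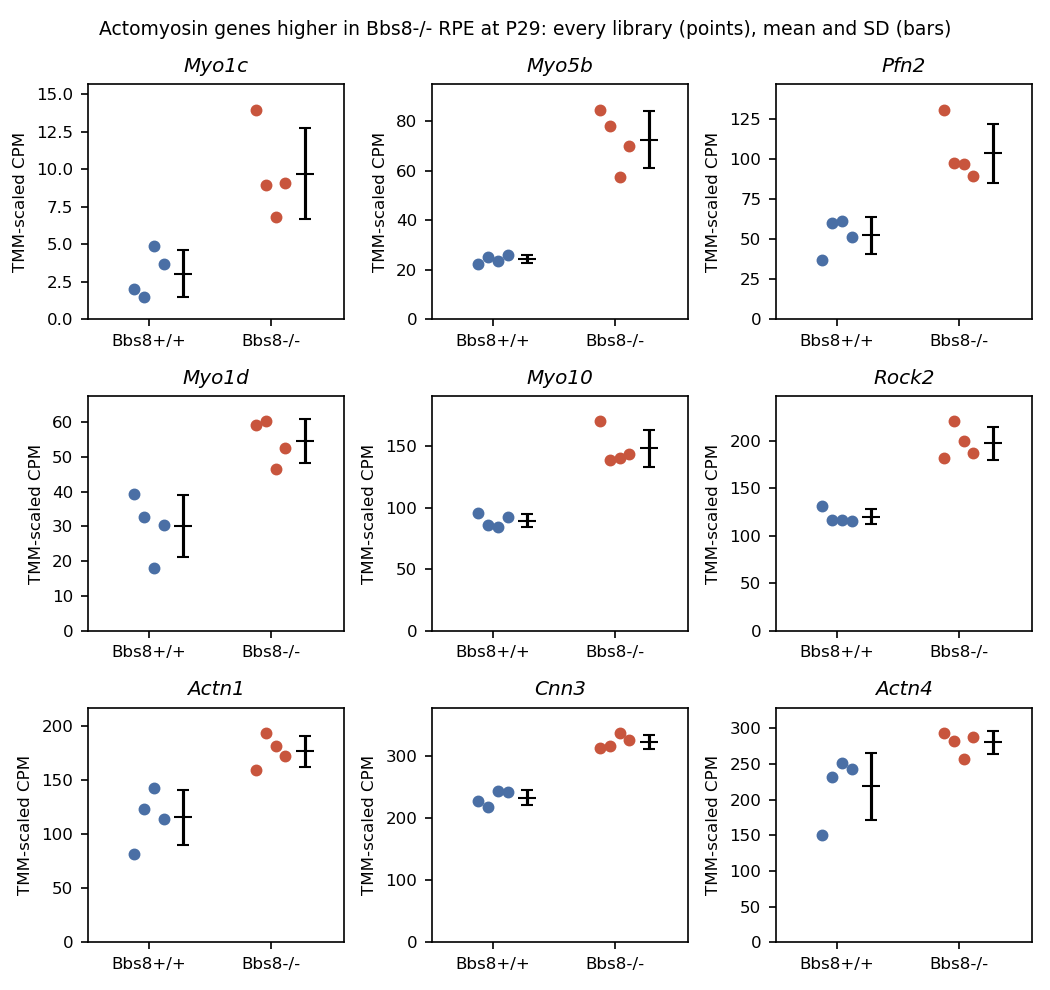
TMM-scaled CPM (y axis, from 0) of the 9 genes that rose, one panel a gene; points are libraries, and bars show mean and SD of the 4 libraries of a genotype. In each panel the 4 *Bbs8*-/- points lie above the 4 *Bbs8*+/+ points, by a wide margin for *Myo5b* and a narrow one for *Actn4*.

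Calponins, transgelins and caldesmon bind along the filament and damp the myosin motor in smooth muscle. *Cnn3* (chr3:121426497-121458207), the calponin of non-muscle cells, was at 228, 219, 244 and 242 CPM in *Bbs8*+/+ and at 313, 317, 338 and 327 CPM in *Bbs8*-/- libraries. It was the steadiest of the rising genes, with SDs of 12.3 and 11.3 CPM around means of 233 and 324 CPM and a log2 fold change of 0.47 (SE 0.0895, adjusted p = 1.82e-04). *Cnn2* was at 32.0 ± 7.24 and 31.1 ± 3.83 CPM (-0.04, adjusted p = 0.943), and the smooth muscle calponin *Cnn1* had at most 2 counts in any library. *Cald1*, the next most abundant gene of the set after *Actb*, was at 473 ± 40.5 and 433 ± 12.4 CPM (-0.13, 95% interval -0.29 to 0.03, adjusted p = 0.376). *Tagln2* was at 18.9 ± 3.44 and 19.9 ± 3.34 CPM, and *Tagln*, a marker of smooth muscle, at 1.41 ± 1.42 and 2.17 ± 2.97 CPM. The neuronal form *Tagln3* was at 3.38 ± 2.21 and 3.76 ± 1.89 CPM, and no transgelin passed the test.

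Cofilins sever old filaments and profilins deliver monomers to growing ends. *Pfn2* (chr3:57841895-57848079) rose from 36.9, 60.4, 61.7 and 51.3 CPM to 131, 97.8, 96.8 and 89.8 CPM. The *Bbs8*-/- libraries were all above the *Bbs8*+/+ libraries, and the mean rose 1.98-fold, from 52.6 ± 11.4 to 104 ± 18.4 CPM (log2 fold change 0.98, SE 0.159, adjusted p = 1.49e-05). *Pfn1*, the general profilin, was at 12.5 ± 9.23 and 17.3 ± 4.18 CPM (0.49, adjusted p = 0.554), a wide spread that came from *Bbs8*+/+ library 1 with 0.339 CPM beside 11.9 to 22.5 CPM in the other *Bbs8*+/+ libraries. *Cfl1* was at 122 ± 19.9 and 118 ± 17.2 CPM (-0.04, adjusted p = 0.890). *Cfl2* was at 55.9 ± 3.27 and 70.7 ± 9.66 CPM, higher in each *Bbs8*-/- library than in any control, without passing the test (0.34, adjusted p = 0.164).

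Filamins crosslink filaments into loose nets and vinculin ties them to adhesion sites. *Flna* was at 53.1 ± 2.44 and 61.9 ± 10.6 CPM (log2 fold change 0.22, adjusted p = 0.453), and the muscle filamin *Flnc* was at 0 to 2.51 CPM. *Vcl* was at 19.0, 9.32, 18.4 and 29.0 CPM in *Bbs8*+/+ and at 32.4, 22.6, 25.2 and 31.4 CPM in *Bbs8*-/- libraries, which overlapped (0.56, adjusted p = 0.197). The end of *Vcl* overlaps the end of *Ap3m1* on the opposite strand, and 53.2% of its terminal 50-base stretches were shared with that gene. Whether counting used strand is not given in the sources used here, so reads of the pair may not be separated.

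**Figure D3:**
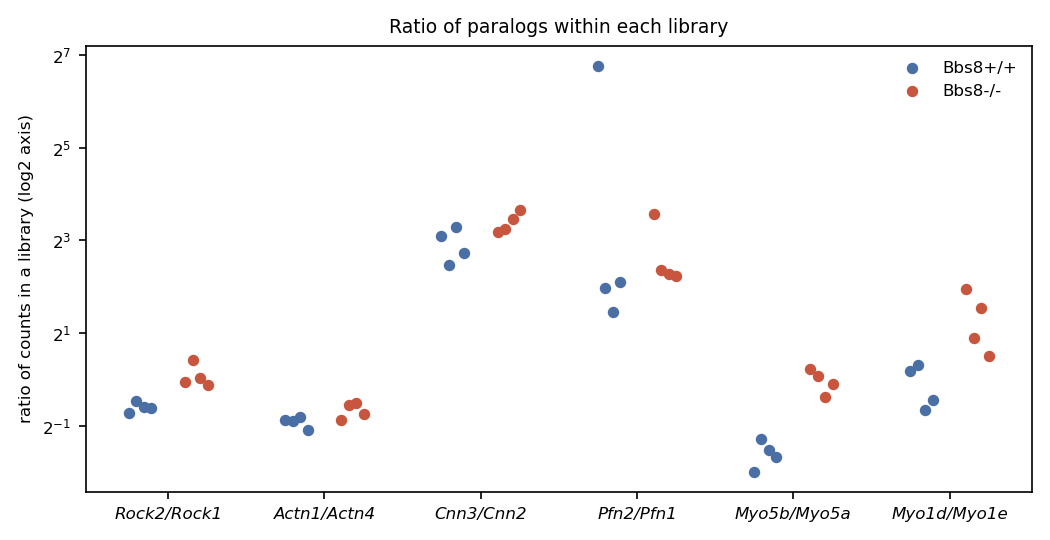
Ratio of the counts of 2 paralogs within each library (y axis, log2 scale), for 6 pairs; blue points are *Bbs8*+/+ and red points *Bbs8*-/- libraries. The ratios of *Rock2* to *Rock1*, *Myo5b* to *Myo5a* and *Myo1d* to *Myo1e* do not overlap between the genotypes, while that of *Pfn2* to *Pfn1* does, with one *Bbs8*+/+ library at 109.

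The genes of the set spread over 19 chromosomes. *Ttc8* lies on chromosome 12 with *Actn1*, 18.7 Mb away, *Rock2*, 81.9 Mb away, and *Cfl2*, 44.1 Mb away. *Actn1* and *Rock2* rose and *Cfl2* did not pass the test. Of the 50 genes, 35 shared none of their terminal 50-base stretches with another gene and 12 shared more than 10%. Among the 12 were *Actb* with 12.8% and, of the rising genes, *Cnn3* with 15.8% and *Actn4* with 13.9%. *Tagln* (39.4%), *Tpm3* (33.0%), *Myl6* (28.6%), *Cfl1* (26.3%) and *Myo19* (25.3%) shared more than these, so their values carry the same limit as those of *Actg1*, *Myl12a*, *Myl12b* and *Vcl*. *Capn12*, which overlaps the end of *Actn4* on the opposite strand, had 0 to 4 counts in a library.

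Other genes that act on actin and myosin were examined in the same fit. Of 79 genes on 5 lists, 76 were tested, 10 rose and 4 fell (13.2% and 5.26%), with a median log2 fold change of 0.07. The share that rose lay between the 5.46% of all genes and the 18.0% of the actin and myosin families. The share that fell was nearer to the 6.80% of all genes than to the 0% of those families. The differences between these shares were not tested. The count of 10 was 6 without *Bbs8*+/+ library 2 or 4 or *Bbs8*-/- library 1, 3 or 4, and 5 without *Bbs8*+/+ library 3. *Mylk*, the kinase that phosphorylates the myosin regulatory light chain in response to calcium, fell. It was at 434, 313, 314 and 329 CPM in *Bbs8*+/+ and at 170.4, 171, 144 and 154 CPM in *Bbs8*-/- libraries, less in every mutant library than in any control (log2 fold change -1.12, SE 0.106, adjusted p = 1.54e-10). The counts of *Mylk* and *Rock2*, which both encode kinases that act on the regulatory light chain, thus moved in opposite directions. Counts at the 3′ end do not tell apart transcripts of a gene that share that end. The only other gene to pass among the 20 tested of signalling to myosin was *Rac1*, a small GTPase that switches on branched actin, which rose by 0.30 on the log2 scale (adjusted p = 0.0337). *Rhoa*, the small GTPase that activates the ROCK kinases, was at 114 ± 15.2 and 120.5 ± 14.2 CPM (0.08, adjusted p = 0.786).

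Talin couples integrins to actin, and *Tln2* fell from 244, 219, 233 and 206 CPM to 89.1, 99.6, 90.0 and 114 CPM (log2 fold change -1.20, SE 0.111, adjusted p = 8.82e-11). Of the other anchoring proteins *Lasp1* (0.47, adjusted p = 0.00465), *Pdlim5* (0.49, adjusted p = 0.0235) and *Palld* (0.38, adjusted p = 0.0371) rose. The list of nucleators was split, with *Arpc1b* (0.56, adjusted p = 0.0115) and *Actr2* (0.52, adjusted p = 0.0306) of the Arp2/3 complex and the formin *Daam1* (0.41, adjusted p = 0.0378) higher, and the Arp2/3 subunit *Arpc4* lower (-0.46, adjusted p = 0.0238). Among the proteins that sever filaments or bind monomers, *Twf1* rose (0.77, adjusted p = 0.00669) and *Dstn*, a relative of cofilin, fell from 301 ± 47.4 to 216 ± 34.9 CPM (-0.48, adjusted p = 0.00234).

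Of the genes of SRF and YAP transcription, 2 of the 8 tested rose, both common readouts of tension in the cytoskeleton. *Ccn2* was at 51.1, 146, 234 and 174 CPM in *Bbs8*+/+ and at 261, 249, 278 and 263 CPM in *Bbs8*-/- libraries (log2 fold change 0.80, adjusted p = 0.00372). The mutant libraries were close together and the control libraries wide apart. *Ccn1* was at 109 ± 17.1 and 149 ± 24.6 CPM (0.45, adjusted p = 0.0162), with overlapping libraries. *Srf* itself (0.43, adjusted p = 0.216) and *Yap1* (0.25, adjusted p = 0.260) did not pass.

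**Figure D4:**
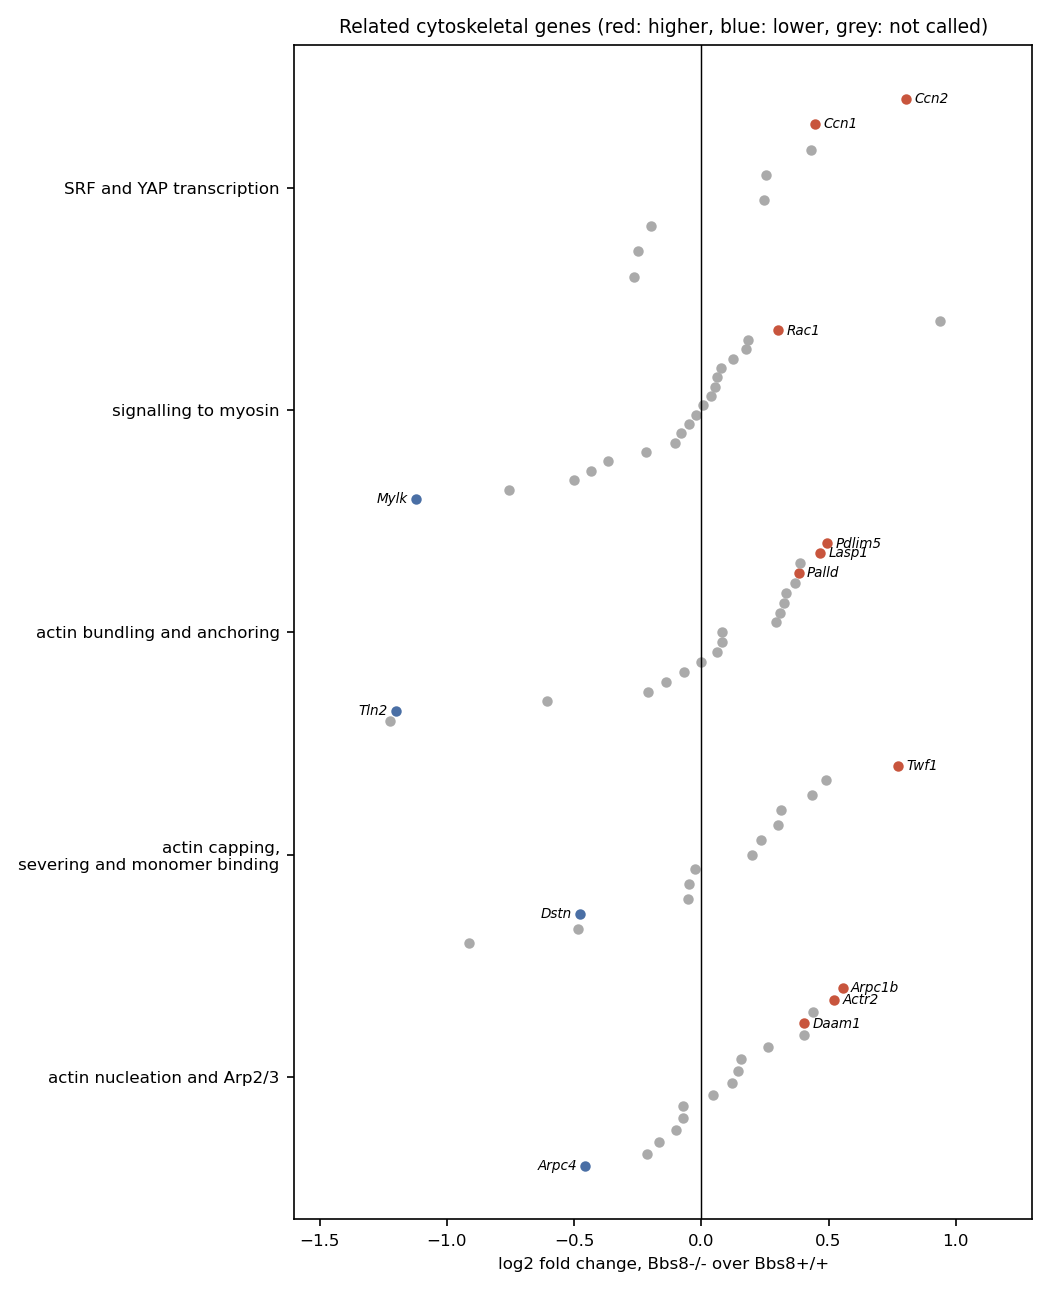
Log2 fold change (x axis; *Bbs8*-/- over *Bbs8*+/+) of the 76 tested genes of the 5 related lists, spread vertically only for legibility; red genes rose, blue genes fell and grey genes did not pass the test. The 4 blue genes are *Mylk*, *Tln2*, *Dstn* and *Arpc4*, and the 10 red genes lie between 0.30 and 0.80.

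Several of these families are also expressed by muscle, vessels and connective tissue, so the markers of these cells are given beside the counts. Of 12 tested markers of smooth muscle and pericytes, 0 were higher and 2 lower (*Synpo2* and *Synm*), with sums of 202 to 224 CPM in *Bbs8*+/+ and 142 to 196 CPM in *Bbs8*-/- libraries. Skeletal muscle markers, of which 4 of 12 were tested and none called, summed to 16.4 to 27.9 CPM against 16.8 to 25.9 CPM. Endothelial markers, of which 7 of 8 were tested and none called, summed to 29.4 to 39.9 CPM against 31.6 to 40.4 CPM. Fibroblast markers, 8 in number, summed to 1080 to 1419 CPM against 998 to 1192 CPM, and 2 of them fell. Of the smooth muscle genes of the set, *Acta2*, *Myh11*, *Myl9*, *Tagln* and *Tpm2* did not pass the test and *Cnn1* was too low to be tested.

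Summed markers of some other cells moved in the direction of the 9 genes. Those of Müller and reactive glia were higher, 5 of 8 past the test. *Apoe* (means of 4110 CPM in *Bbs8*+/+ and 4856 CPM in *Bbs8*-/-) and *Glul* (1199 and 1709 CPM) made most of that sum. The other called glial markers had far larger log2 fold changes. *Serpina3n* went from 7.06 to 423 CPM (5.90) and *C4b* from 3.02 to 181.5 CPM (5.91). *Gfap*, close to the floor in *Bbs8*+/+, went from 1.07 to 5.77 CPM (2.41). *Slc1a3* and *Aqp4*, above 0, and *Vim*, at -0.18 on the log2 scale, were not called. The melanocyte sum was higher too (197 to 240.4 CPM against 273 to 287 CPM), with 1 of 5 markers, *Mlana*, called higher. *Sox10* made most of it and was not called (140 and 158 CPM, adjusted p = 0.405). The ocular surface epithelium also had a higher sum. The last list had 4 of 6 tested markers higher, at 44.6 to 64.0 CPM against 115 to 148 CPM, and its keratins *Krt5* and *Krt14* were at 0 in every *Bbs8*+/+ library. RPE markers were split, 4 of 10 higher and 2 lower (median log2 fold change 0.01), and their sum was higher with *Ttr* and lower without it. Photoreceptor markers (8 of 12 lower, 3 higher) and lens markers (13 of 13 lower) moved the other way, with the 4 related genes that fell. Erythrocyte markers (5 of 6 lower) summed to 5154 to 5718 CPM against 1985 to 2218 CPM, and microglia markers to 325 to 434 CPM against 290 to 325 CPM with none of 7 called. The part of these cells in the rise of the 9 genes, or in the fall of *Mylk*, *Tln2*, *Dstn* and *Arpc4*, was not tested. With scaling factors computed without the photoreceptor, lens and erythrocyte markers, the same count of 9 higher and 0 lower was obtained.

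**Figure D5:**
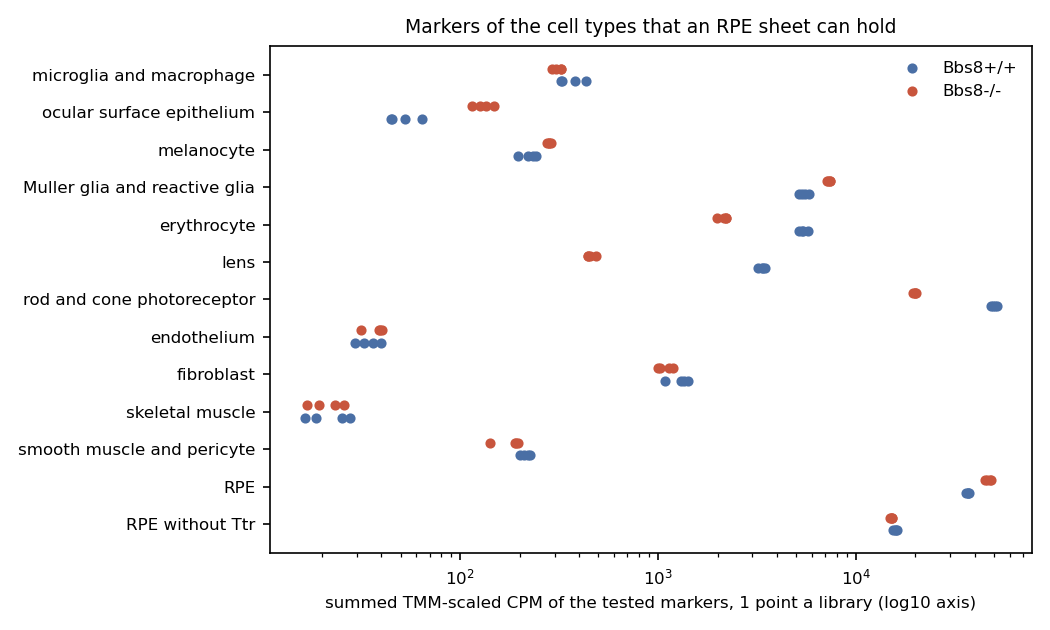
Summed TMM-scaled CPM of the tested markers of each cell type (x axis, log10 scale), 1 point a library; blue points are *Bbs8*+/+ and red points *Bbs8*-/- libraries. Sums of muscle and endothelial markers overlap or nearly meet between the genotypes, those of photoreceptor, lens and erythrocyte markers are lower in *Bbs8*-/-, and those of glia, melanocyte and ocular surface markers are higher. The RPE sum is higher with *Ttr* and lower without it.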

How the data were processed

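RPE RNA (30 ng a library) was sequenced with the QuantSeq 3′ kit as 100 bp single-end reads. The authors trimmed the reads with BBDuk, aligned them with STAR to mm10 with Ensembl gene models, counted uniquely mapped reads with htseq-count and deposited raw counts per gene without filter or pooling. Rows that name no gene, 51.0% to 54.2% of the reads of a library, were left out of library sizes and tests.

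Groups came from the labels alone. Genes that reached 1 CPM in 4 or more libraries were tested in R 4.3.3 with edgeR 4.0.16 (TMM, quasi-likelihood F test, two-sided, Benjamini-Hochberg over 12889 genes, threshold 0.05) without covariates. Errors of log2 fold changes are SE, derived as the absolute log2 fold change divided by the square root of the F statistic. Intervals are 1.96 SE, a normal approximation that can be narrower than the F test allows. The interval of *Myo16*, 0.047 to 2.95, left out 0 at an unadjusted F test p of 0.0504. DESeq2 1.42.0 and 16 further settings were alternatives. Ratios of paralogs were compared with exact permutation tests. The fit was tested on simulated data. Gene names matched 30934 of 31053 identifiers. Coordinates are GRCm38, from GENCODE, and promoter sequences RefSeq's, GRCm38.p6. Shared sequence was counted as 50-base stretches in the last 500 transcript bases.

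The genes, lists and markers were chosen with earlier results of these data known. Named were genes past the threshold or with an unadjusted p under 0.05, the most abundant of each role, a fixed set of well-known genes, and, of the related lists, those past the threshold. *Myo1e*, *Myo9a*, *Srf*, *Yap1*, *Rhoa*, the genes near the floor, the paralog ratios and the printed sequences were chosen after their values were seen. Values of 2 genes of the set are not reported here.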

Additional observations from a re-analysis of the deposited data

Results flagged for a closer look

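In the 36 genes that averaged 10 CPM or more, the 4 libraries of each genotype were examined for a value far from the other 3, and 5 of the 72 groups held one; chance gives about 1 in 20 groups. *Rock2* was highest in *Bbs8*+/+ library 1 at 131.7 CPM, with the other *Bbs8*+/+ libraries within 1 CPM of each other, and this library still lay below every *Bbs8*-/- library. *Myh14* was lowest in *Bbs8*+/+ library 3 at 67.0 CPM. *Bbs8*-/- library 1 accounted for the other 3, with *Myo10* highest at 170.4 CPM, *Pfn1* lowest at 11.1 CPM and *Myo5a* lowest at 71.8 CPM. Without this library the log2 fold change of *Myo10* was past the threshold as well. Reads that fell in no gene, which no comparison used, made up at least 19.8% of the reads in *Bbs8*-/- libraries and at most 18.4% in *Bbs8*+/+ libraries.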

How the results depend on the processing

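Under 17 other settings of scaling, test, filter and libraries, 8 to 11 genes of the set rose and 0 fell. All 50 were fitted except under filterByExpr (41) and the 5 CPM filter (40). DESeq2 gave no adjusted p for some genes of low counts, *Actg1* and *Tagln* among them, which therefore could not pass there. Leaving out one library at a time gave 8 to 9, library size alone as scaling gave 11 and DESeq2 gave 10. At an adjusted p of 0.01, 7 rose. *Myo5b*, *Rock2*, *Pfn2*, *Myo10*, *Cnn3*, *Actn1* and *Myo1d* passed in all 17 settings. *Actn4* did not pass without *Bbs8*+/+ library 1 (adjusted p = 0.124) or *Bbs8*-/- library 1, 2 or 4 (0.0836, 0.0724 and 0.0879), and *Myo1c* without *Bbs8*+/+ library 2 or *Bbs8*-/- library 1 (0.0765 and 0.0940). *Tpm1* passed with library size alone (0.0148), filterByExpr (0.0427), a 5 CPM filter (0.0383) and DESeq2 (0.0340), and *Myl12a* with library size alone (0.0267). Of the 41 genes that did not pass, 18 changed sign in at least one setting. Of the related lists, 5 to 9 genes rose and 3 to 4 fell when one library was left out, and 3 rose at an adjusted p of 0.01. Over all genes, 704 rose and 877 fell, against 394 and 571 at an adjusted p of 0.01, and 1005 and 657 with library size alone, which moved the median log2 fold change of all genes from 0.02 to 0.11. The cause of these shifts was not tested.

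Replicate numbers did not pair the samples: the deviations of same-numbered libraries correlated at -0.06 to 0.01. With the replicate block, 9 of the 50 genes rose and 0 fell, and of the related lists 8 rose and 4 fell. At these depths genes of a few CPM could hardly be compared. *Myo1c*, which passed with 4 to 12 counts in the *Bbs8*+/+ libraries, carries this limit. The fold changes of *Actg1*, *Myl6*, *Myl12a*, *Myl12b*, *Tpm3*, *Cfl1*, *Tagln*, *Myo19* and *Vcl* are uncertain because they share sequence or overlap with other genes. *Cnn3*, *Actn4* and *Actb* share less sequence (15.8%, 13.9% and 12.8%) and carry the same limit to a smaller degree.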
